A study of Caenorhabditis elegans with 2 samples.

Results

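The peaks described here lay just below the threshold of a map of SMA-9 binding in Caenorhabditis elegans, made by chromatin immunoprecipitation and sequencing (ChIP-seq). They were chosen by the authors' peak signal. The pooled list of both replicates, in the ce11 build, was sorted by signal with the highest first, the ranks after the 125 thresholded peaks were taken down to rank 1000, and peaks that overlapped the thresholded list by 1 bp or more were left out. This kept 873 of the 875 ranks and 873 of the 30000 pooled peaks, and ranks 237 and 796 were the peaks left out. The thresholded list is the 125 pooled peaks of highest signal. The members were set against the comparison peaks, which are the 3992 peaks ranked after 1000 and down to 5000 that overlapped no thresholded peak. Peaks ranked after 5000 are called the lower peaks.

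All animals were of strain OP130, mixed-sex whole larvae of the second larval stage (L2). They carried the unc-119(ed3) III mutation and the integrated transgene wgIs130, which expresses SMA-9 tagged with eGFP. The labels name the antibody by its target, sma-9. There was 1 group with 2 biological replicates and no second genotype, stage or treatment, and no control library was used here. Whole larvae mix all tissues, so the cells that gave a peak are unknown. The signal is the authors' value per peak on a scale they do not state, its medians were 14.1 in the pooled list, 9.504 in replicate 1 and 6.34 in replicate 2, and lists were therefore compared by rank. Read depth is unknown from these lists, which limits what can be said of the precision of any 1 peak. Peaks are units within these libraries and not replicates, so the intervals below cover counting error over peaks only.

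SMA-9, with its many zinc fingers, is the worm relative of Schnurri, a partner of SMAD proteins in fly BMP signalling. In worms it acts with the Sma/Mab pathway, in which the ligand DBL-1 signals through receptors to SMAD proteins that set body size. It also takes part in dorsoventral patterning of the postembryonic mesoderm.

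The letters under the strongest members are shown first, because short motifs were among the differences called below. These are the 4 best ranked members that held both the GA repeat GAGAGA and CACGTG, the palindromic E-box that Myc-type basic helix-loop-helix proteins bind. Each is the 200 bp window around the peak centre on the plus strand of ce11, from the RefSeq assembly, with both motifs in capitals on either strand (TCTCTC is GAGAGA read from the other strand). The members at saeg-1 and Y43F8B.2 ranked 266 and 70 in replicate 1 but only 22943 and 28319 in replicate 2.
First member, chrII:13462109-13462308, in an intron of E01G4.3 and 164 bp upstream of a start of that gene: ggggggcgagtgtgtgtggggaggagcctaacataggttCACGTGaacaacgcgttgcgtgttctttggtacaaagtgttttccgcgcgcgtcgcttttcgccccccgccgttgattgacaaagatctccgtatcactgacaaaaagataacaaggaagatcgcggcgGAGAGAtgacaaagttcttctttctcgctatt
Rank 132, chrV:10871519-10871718, between genes, 5920 bp upstream of saeg-1: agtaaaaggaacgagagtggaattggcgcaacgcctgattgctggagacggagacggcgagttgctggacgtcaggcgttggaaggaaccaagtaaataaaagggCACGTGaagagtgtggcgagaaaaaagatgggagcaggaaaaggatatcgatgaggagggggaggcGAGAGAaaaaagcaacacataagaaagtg
Rank 136, chrV:5410693-5410892, between genes, 162 bp upstream of F08F3.4: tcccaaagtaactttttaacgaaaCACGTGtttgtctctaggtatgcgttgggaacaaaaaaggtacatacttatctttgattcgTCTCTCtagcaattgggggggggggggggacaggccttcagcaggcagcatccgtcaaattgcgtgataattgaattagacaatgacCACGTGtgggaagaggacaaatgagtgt
Rank 139, chrV:19529274-19529473, in an intron of Y43F8B.2: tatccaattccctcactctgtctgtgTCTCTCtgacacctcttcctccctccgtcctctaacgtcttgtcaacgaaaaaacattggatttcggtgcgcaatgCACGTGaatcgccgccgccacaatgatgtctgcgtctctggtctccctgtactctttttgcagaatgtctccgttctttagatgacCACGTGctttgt

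The next 3 windows, 100 bp each, belong to members overlapped by peaks near the top of both replicate lists. Only at rhy-1 did the summits of those peaks in both replicates lie within 100 bp of the pooled peak centre. At dhs-25 the replicate 2 peak with a summit that close ranked 13016, and at hlh-11 replicate 2 had no such peak. These shorter windows hold neither motif, though the 200 bp window at hlh-11 holds GAGAGA.
Rank 130, chrII:9160385-9160484, 944 bp upstream of rhy-1, which regulates the hypoxia response: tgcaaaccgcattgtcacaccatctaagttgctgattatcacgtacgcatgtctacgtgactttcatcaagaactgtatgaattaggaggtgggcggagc
Rank 145, chrX:1486361-1486460, 121 bp upstream of dhs-25, a short-chain dehydrogenase: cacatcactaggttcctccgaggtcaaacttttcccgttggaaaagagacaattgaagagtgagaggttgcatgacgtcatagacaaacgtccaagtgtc
Rank 164, chrIII:9619371-9619470, 290 bp upstream of hlh-11, a basic helix-loop-helix factor: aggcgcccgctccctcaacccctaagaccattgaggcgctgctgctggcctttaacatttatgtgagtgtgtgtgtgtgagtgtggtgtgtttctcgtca

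The members' pooled signal ran from 34.5 down to 24.0, with a median of 26.0, against a median of 20.3 for the comparison peaks. There was no gap at either edge. The signal was 34.6 at the last thresholded peak and 34.5 at the first member, and it was 24.0 both at rank 1000 and at the first comparison peak. The peak at rank 1000 fell within C34H3.21, a noncoding RNA gene, 625 bp upstream of odd-2, while the first comparison peak lay in an intron near exp-2. The authors' score, whose scale is unknown, was above 0 for 241 members (27.6%) and for 0 of the 3992 comparison peaks. It was also above 0 for 9037 lower peaks (36.2%). The members' ranks taken by the score therefore held at most those 241 members, and the rest were lower peaks. The set compared with them under that ranking held no comparison peak. Values below from ranking by the score thus cover only a minority of the members.

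The values in this paragraph and the next are a description, because the pooled signal that chose the members was made from the reads of both replicates. A peak among the 1000 strongest of replicate 1 overlapped 412 members (47.2%), against 3.33% of all pooled peaks outside the thresholded list. For replicate 2 the count was 183 members (20.96%), against 3.21%. At this depth of list 27 members (3.09%) were covered in both, against 4 of the comparison peaks (0.100%), and 305 members (34.9%) in neither. Among the 5000 strongest peaks, 301 members (34.5%) were covered in both lists, 423 in replicate 1 only, 129 in replicate 2 only and 20 in neither, where the share covered in both over all pooled peaks outside the thresholded list was 2.03%. When summits had to lie within 100 bp, 211 members (24.2%) remained covered in both, against 1.75% of the comparison peaks.

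Every member had a peak somewhere in at least 1 of the replicate lists of 30000, and only 0.175% of the comparison peaks had none in either. Of the members, 11 had none in replicate 1 and 109 had none in replicate 2. Thus 98.7% and 87.5% of members had a peak in replicates 1 and 2, against 92.7% and 76.0% of the comparison peaks. The median rank was 1091.5 in replicate 1 (46 to 29050) and 4017 in replicate 2 (31 to 29966). Over the 753 members found in both lists, replicate 1 signal divided by replicate 2 signal had a median log2 of 0.83 (SD 0.69), which became 0.25 after each list was divided by its median signal. On that scale 470 members were higher in replicate 1, that is above 0 and 283 were below.

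**Figure D1:**
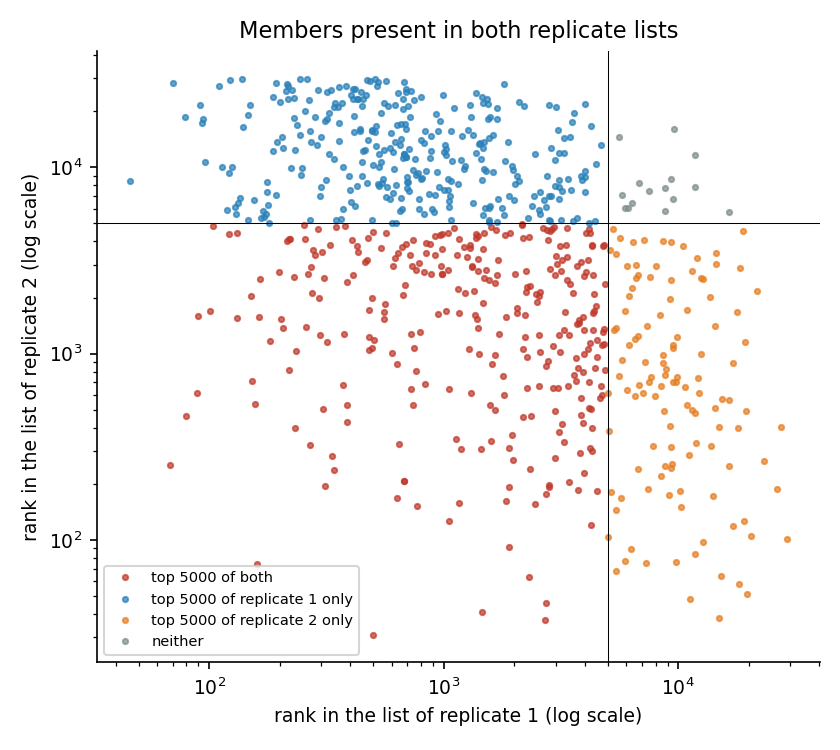
Rank of each of the 753 members found in both replicate lists, with replicate 1 on the horizontal and replicate 2 on the vertical axis, both on log scales; lines mark rank 5000. The points fill 2 arms more than the lower left corner, and 301 of them lie inside the top 5000 of both.

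A further reading, added after other values had been seen, was to rank by 1 replicate and look in the other. The same ranks were taken in replicate 1's own list, without peaks overlapping the thresholded list. These were peaks of that list and not the members themselves. The thresholded list came from both replicates, so the reading was not wholly free of the other replicate. Of those 841 peaks, 14.6% were covered by a top 5000 peak of replicate 2, against 9.15% at the comparison ranks. The difference was 5.48 percentage points (95% interval 3.06 to 8.17). In the other direction 112 of 849 (13.2%) were covered, against 9.55%, a difference of 3.64 points (1.33 to 6.24). With the top 1000 of the other replicate the differences were 1.07 points (-0.06 to 2.57) and 0.995 points (-0.18 to 2.53), and neither interval excluded 0.

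**Figure D2:**
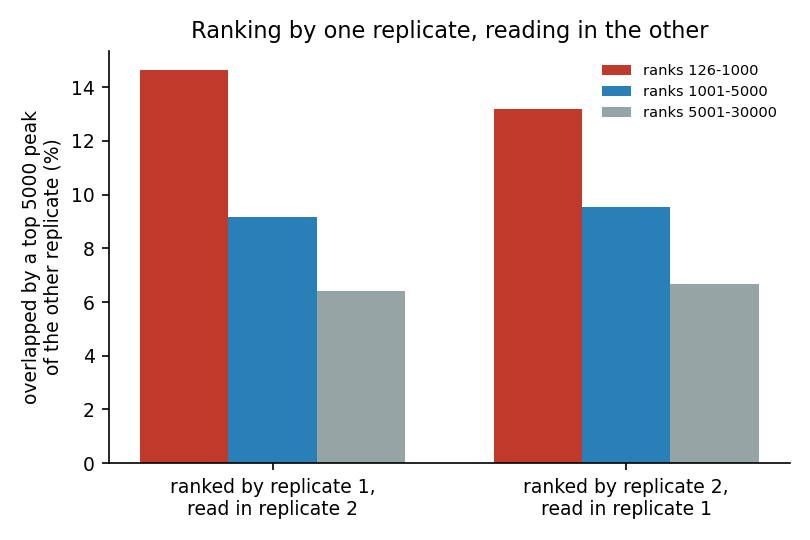
Share (%) of peaks ranked by 1 replicate that were overlapped by a top 5000 peak of the other, for the members' ranks, the comparison ranks and the lower ranks, in both directions. The members' ranks stand highest in both directions, at 14.6% and 13.2%.

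At 10 members, peaks from the top 500 of both replicates overlapped the same pooled peak, and at 3 of these both replicate summits lay within 100 bp of the pooled one. Those 3 were at rhy-1 (rank 130, replicate ranks 233 and 401), mtd-1 (rank 152, ranks 268 and 322) and in the 3' UTR of atf-7, which encodes a bZIP factor of innate immunity (rank 228, ranks 386 and 428). The others were dhs-25 (ranks 160 and 74), hlh-11 (68 and 251), F49E7.5 (311 and 194), T11F9.15 beside snr-4, a spliceosomal Sm protein gene (335 and 281), the 3' side of E01G4.3 (340 and 237), the piRNA gene 21ur-13200 (80 and 464) and F08F3.4 (498 and 31). At dhs-25, for example, the replicate 2 peak whose summit fell within 100 bp ranked only 13016. At F08F3.4 replicate 1 had no peak with its summit that close.

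The 20 members of highest signal show how mixed the support was. The first member, at E01G4.3, stood at 181 and 1163 in the replicates. The member in an intron of tre-2, a trehalase gene and the third member, stood at 206 and 1365. The member 320 bp upstream of lgg-2, an autophagy protein of the LC3 family (rank 133), stood at 101 and 1700. All of these were well placed in replicate 1 and lower in replicate 2. Others were placed the opposite way, such as the member in an intron of daf-11, a guanylyl cyclase of dauer and chemosensory signalling (rank 138, replicate ranks 2711 and 37). The member in linc-48, 413 bp upstream of osm-11, which encodes a secreted Notch co-ligand (rank 137), was at 769 and 152. Replicate ranks are those of the best ranked overlapping peak, whose summit can lie elsewhere. At tre-2 and daf-11 replicate 2 had no peak with its summit within 100 bp of the pooled one. At lgg-2 the replicate 2 peak with a summit that close ranked 11770. The rest of the 20 lay in or beside clh-2, F26F4.14, T19D7.6, D2023.3, W06H8.6, R06C1.10, the pseudogene WBGene00017205, gpaa-1 and Y53F4B.47, with bris-1, saeg-1, Y43F8B.2, F08F3.4, rhy-1 and dhs-25 given elsewhere.

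Signal ratios exist only for the 753 members found in both lists, and they were not divided by the list medians here. They were most extreme toward replicate 1 at Y43F8B.2 (rank 139, 29.0 in replicate 1 and 4.77 in replicate 2, log2 ratio 2.60). F40B5.4 (2.40), 21ur-14603 (2.37), bris-1 (2.35) and the pseudogene WBGene00017205 (2.30) followed. The first of these held both motifs and stood at rank 70 in replicate 1 and 28319 in replicate 2. Toward replicate 2, T13C2.3 had 7.31 against 15.7 (log2 ratio -1.098), then T19H5.4 (-1.04), Y16B4A.2 (-0.999), C56G2.18 near akap-1 (-0.97) and hst-2 (-0.90). The 4.77 and the 7.31 lay near the lowest signals of their lists, 4.63 in replicate 2 and 7.18 in replicate 1.

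By position, members lay at gene starts more often than the comparison peaks. Counting summits no more than 500 bp before and 200 bp after an annotated start of any gene class, 286 members (32.8%) were at a start, against 28.9% of the comparison peaks, a difference of 3.85 points (0.50 to 7.32). A share was called different where the interval of the difference, widened for the number of measures in its family, excluded 0. For starts of coding genes alone the shares were 20.05% and 18.6%, and that difference of 1.43 points was not called (-1.38 to 4.46). When the same ranks were taken from replicate 2's own list, the start difference turned to -1.58 points, and from replicate 1's own list it was 3.25 points and not called. The excess was in the better ranked members, since those after rank 500 had 28.9%, a difference of -0.05 points.

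Noncoding RNA genes stood out more. Exons of noncoding RNA genes held 35 member summits (4.01%), against 1.75%, a difference of 2.26 points (1.05 to 3.81) that was called. Genes of the class annotated as ncRNA lay within 200 bp of 71 members (8.13%), against 4.11%, a called difference of 4.02 points (2.26 to 6.11). In replicate 2's own list the differences fell to 0.463 and 0.905 points and in replicate 1's to 1.51 and 1.48, and of these only the exon difference from replicate 1 was called. Ranking by the score, which put lower peaks in place of most members, gave 0.751 and 0.721 points. Members after rank 500 gave 0.852 and 1.102 points. No difference by the score or after rank 500 was called. The other RNA classes were not called: piRNA genes lay near 31 members (3.55% against 3.33%), tRNA genes near 4, snoRNA genes near 2, an snRNA gene near 1, and miRNA and rRNA genes near 0, which allows a share of up to 0.422% by the exact interval. Long intergenic and antisense RNA genes lay near 9 members, 1.03% against 0.426%, with an interval of 0.05 to 1.54 points that did not pass once widened.

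The remaining features did not differ by that rule. Coding exons held 166 summits (19.0% against 21.8%, difference -2.80 points, -5.59 to 0.21), coding introns 250 (28.6% against 30.5%), space between genes 347 (39.7% against 37.2%), 3' UTRs 40, 5' UTRs 16, pseudogenes 10 and introns of noncoding genes 9. The X chromosome held 221 members (25.3% against 24.2%), and no chromosome share was called.

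**Figure D3:**
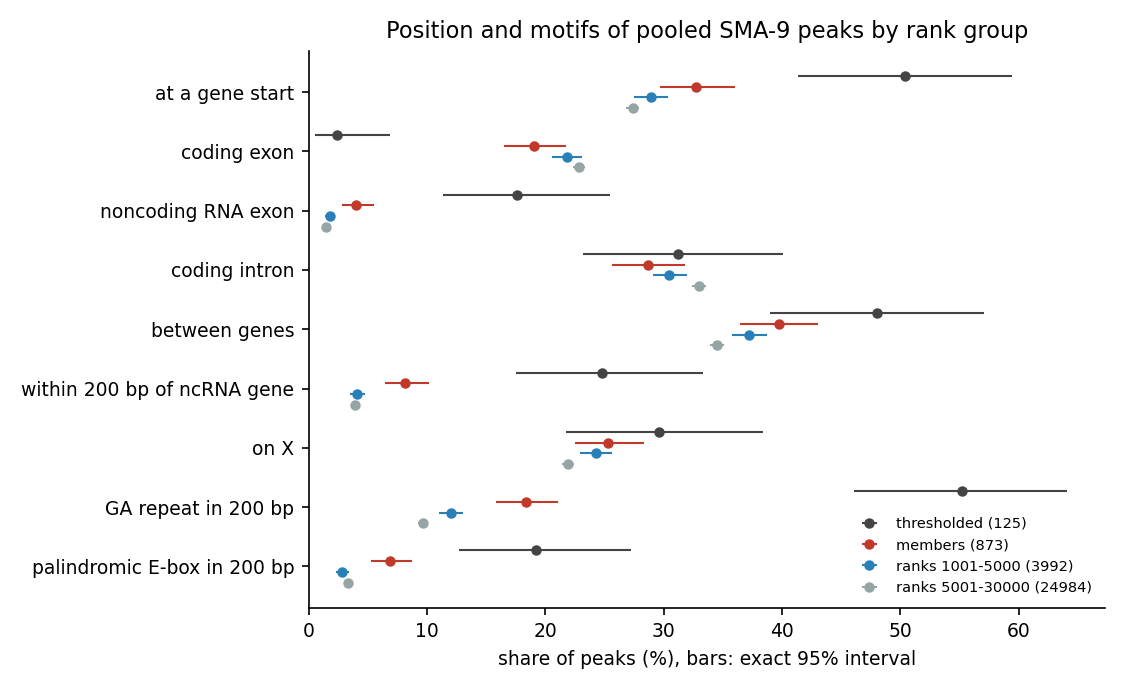
Share (%) of peaks with each position or motif in the 125 thresholded peaks, the 873 members, the comparison peaks and the lower peaks; points are shares and bars exact 95% intervals. For starts, noncoding RNA exons, ncRNA genes and both motifs the members lie between the thresholded peaks and the comparison peaks.

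Where on the chromosomes the members lay was measured after other values had been seen. On the autosomes, whose outer parts in this species are richer in repeats and recombine more than the centres, 183 of 652 members (28.1%) lay in the outer 25% at either end. The share was 35.6% for the comparison peaks, a difference of -7.55 points (-11.3 to -3.60), and 41.7% for the lower peaks. In replicate 1's own list it was -2.55 points and with ranking by the score -3.96 points, both with intervals that reached 0. Of the members, 59 (6.76%) lay within 10 kb of a thresholded summit, against 3.23%, a difference of 3.53 points (1.93 to 5.46), which was 0.0308 points in replicate 2's own list. Members rarely sat on each other, with only 4 overlapping another.

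In sequence, the windows were slightly richer in G and C. Mean GC content over 200 bp was 36.1% (SD 7.20) in members and 34.7% (SD 6.72) in the comparison, a difference of 1.35 points (0.83 to 1.87), while thresholded peaks had 46.2%. The difference was 0.611 points in replicate 2's own list (0.09 to 1.14) and 1.39 points in replicate 1's own list (0.86 to 1.91). It was 0.374 points with ranking by the score (-0.15 to 0.90) and 0.300 points for members after rank 500 (-0.32 to 0.92). A GC content of 45% or more was found in 106 members (12.1%), against 7.82% of the comparison and 61.6% of the thresholded peaks.

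**Figure D4:**
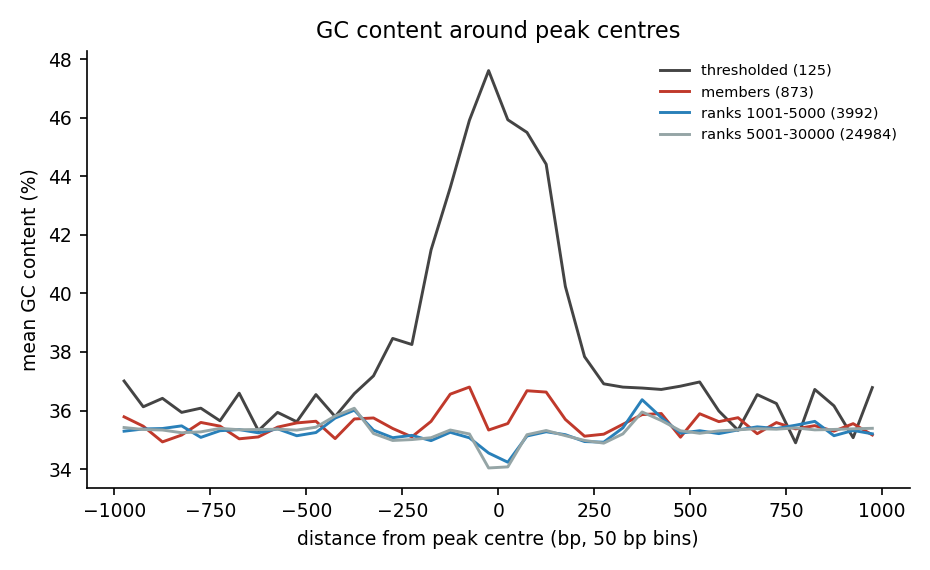
Mean GC content (%) in 50 bp bins against distance from the peak centre (bp) for the same 4 sets of peaks. The thresholded peaks rise steeply at the centre and the members rise a little 75 to 125 bp to each side of it. The comparison and lower peaks do not rise there, but they rise a little 375 bp to each side and dip at the centre.

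Of the 10 motifs searched on both strands, GAGAGA and CACGTG were called. The SMAD-binding core GTCT, which its palindrome GTCTAGAC overlaps, was not, nor was the core for GATA factors, GATAA. The GC-rich words GGCGCC and also GGCCG as well as GGGCGG were not called, and neither was AGGTCA, a nuclear receptor core, nor the run TTTTTT. The repeat GAGAGA, which in flies is the site of GAGA factor, was in 160 member windows (18.3%), against 11.999%, a difference of 6.33 points (3.69 to 9.20), and in 10.4% of all pooled windows. CACGTG was in 60 (6.87%), against 2.81%, a difference of 4.07 points (2.47 to 5.999), and in 3.403% of all. With the comparison share reweighted to the members' GC content, over the 869 members with comparison peaks in their GC bin, the differences were 5.08 and 3.92 points and both were called. In replicate 2's own list they were 2.36 and 0.529 points and not called. In replicate 1's own list they were 6.22 and 2.01 points and both were called. Ranking by the score gave CACGTG a difference of 1.69 points, which was not called. For members after rank 500, GAGAGA differed by 1.03 points and was not called, and CACGTG by 2.61 points and was called.

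Both motifs together were in 18 members (2.06%), 0.601% of the comparison and 15 of the 125 thresholded peaks. Besides the 4 printed above these included bet-2, a gene of the BET bromodomain family (rank 321, replicate ranks 678 and 207), mdl-1, a Mad-like basic helix-loop-helix gene (rank 415, ranks 5441 and 68), and a second member at rhy-1, 52 bp upstream of its start (rank 492, ranks 5735 and 927). These genes were chosen after their values were seen. GTCT was in 65.3% of members and 60.8% of the comparison, with an interval of 0.97 to 7.96 points that did not pass once widened, and in 60.7% of all pooled windows. GATAA was in 44.8% against 40.9% (0.32 to 7.58 points) and in 40.1% of all pooled windows, and it was called only after the reweighting, at 5.23 points.

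The properties changed within the ranks. In 7 bands of equal width, GAGAGA was in 33.9% of members in the first band and 11.2% in the last. CACGTG was in 11.3% and 6.4%, and mean GC content was 39.8% and 35.8%. The share covered by a top 1000 peak of replicate 1 was 77.4% and 24.0%. Gene starts held 37.9%, 36.8% and 39.2% in the first 3 bands and between 26.4% and 31.5% in the last 4. Coding exons ran unevenly, from 8.87% in the first band to 26.4% in the next and 12.8% in the one after. These bands were drawn after other values had been seen and carry no test.

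**Figure D5:**
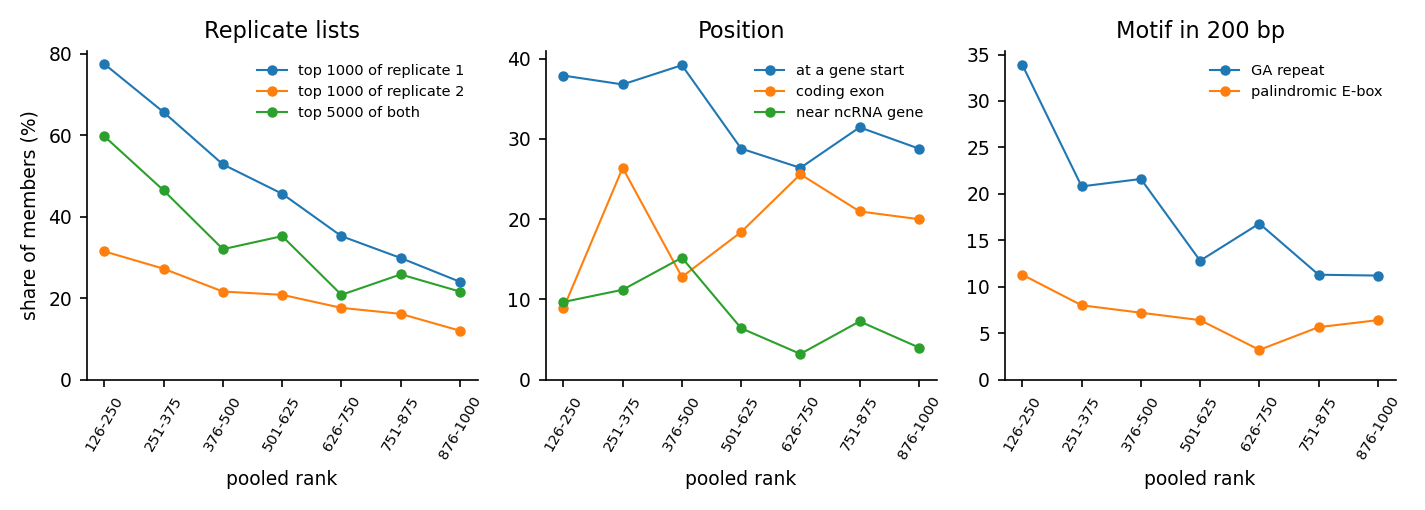
Share (%) of members in each of 7 bands of pooled rank that were covered in the replicate lists (left), had a position (middle) or held a motif (right). The GA repeat is at 33.9% in the first band and 11.2% in the last, with a rise in between, and coverage in the top 1000 of each replicate is highest in the first band.

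Divided by support, motif shares were highest in members supported by both replicates. The sets also differed in pooled signal, with medians of 27.02, 25.92 and 25.03 in the order given here. Since motif content changed with pooled rank, these values are a description and no separate support. The 301 members in the top 5000 of both replicates had GAGAGA in 22.3%, the 423 of replicate 1 only in 17.3% and the 129 of replicate 2 only in 13.2%. CACGTG followed at 9.30%, 6.62% and 3.10%. Mean GC content was 37.7% with support in both, against 35.2% and 35.9%. Coding exons were at 19.6%, 15.6% and 27.9%. For these the intervals of the set in both against the others included 0 (-1.56 to 9.78 and -17.6 to 0.23 points).

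Genes were counted where a summit lay no more than 1 kb before or 500 bp after their start, which held for 442 members (50.6%, against 48.4% of the comparison) and 768 genes, 330 of them coding. Of these genes 8 were among the 140 of the thresholded peaks, 1.04% of the former and 5.71% of the latter, and of the 3155 genes of the comparison peaks 6 were (0.190%). Counting the whole gene and 1 kb upstream, 692 coding genes had a member summit, 665 of them a single one and 26 had 2. T28B11.1, a 20.3 kb gene on V, had 3 members (ranks 155, 159 and 488) and 2 thresholded summits. Its strongest member stood at rank 93 in replicate 1 and 17236 in replicate 2, and its weakest at 2173 and 1059, so the replicates did not order these sites alike.

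Genes with 2 member summits included several regulators. They were E01G4.3 (the first member and rank 350, 7273 bp apart), rhy-1 (ranks 130 and 492), nhl-2, a TRIM-NHL cofactor of microRNAs (ranks 129 and 835), vhp-1, a MAP kinase phosphatase gene that also had 2 thresholded summits (ranks 158 and 244), and fos-1, an AP-1 subunit (ranks 289 and 967). The nuclear hormone receptor gene nhr-27 had ranks 230 and 430 in its 103 kb, a span that also held 10 comparison summits and 1 thresholded one. The pair at the start of bet-2 lay 248 bp apart.

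Most gene families had few members. Of 31 lists, 14 had no gene with a member summit in the start window, among them the 23 genes of the BMP-like Sma/Mab pathway (1 gene in the comparison), 22 of mesoderm of the M lineage (2), 16 of the Wnt pathway (0), the sma- genes and the histones. Only 330 coding genes in all had a member summit in that window, so lists this short may well hold none, and their zeros were not tested. The window leaves out summits farther from a start, such as those within daf-16 (rank 157) and lin-42 (rank 176). Nuclear hormone receptors, ligand-regulated transcription factors, had 5 genes at 6 members of 269 genes (0.687% of members against 0.576% of the comparison). The best placed was nhr-249, whose 2 members at ranks 493 and 545 overlapped, with summits 204 bp apart, and may be 1 site counted 2 times in that share. Both summits lay in a pseudogene, 861 and 657 bp from the start of nhr-249. These 2 members shared 1 replicate 2 peak at rank 39 and had none in replicate 1. The next were nhr-85 and nhr-100, the latter with its summit in a coding exon, 780 bp from the start of nhr-100.

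Among other regulators, the homeobox list had ceh-82 (rank 358) and ceh-9 (rank 770), and the bHLH list had hlh-11 alone. The summit counted for ceh-82 lay in a coding exon, 946 bp from the start of ceh-82. The lin- list had lin-9, a subunit of the DRM complex (rank 223, 22 bp from its start, replicate ranks 4276 and 300). The unc- list had unc-30, a homeodomain factor of GABA neurons (rank 199, ranks 2176 and 456), and unc-6, the netrin gene (rank 762, absent from replicate 1 and at rank 143 in replicate 2). The Notch list had osm-11. Ribosomal proteins had rpl-3 (rank 197) and rps-8 (rank 394), the latter with its summit in a 3' UTR, 697 bp from the start of rps-8. Neuropeptides had nlp-58, nlp-31 with nlp-34 at 1 peak, ins-39 and nlp-45.

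Receptor and enzyme families supplied the rest. Chemoreceptor genes, which form very large families in worms, numbered 33 at 30 members (3.44% of members against 2.58% of the comparison), led by sre-1 (rank 203, 24 bp from its start), srv-16, srx-125 and srh-290. Cytochromes P450 had cyp-13A2 (rank 179, 6 bp from its start, replicate ranks 157 and 539) and cyp-29A4. One gene each came from the UDP-glycosyltransferases (ugt-20), the TWK potassium channels (twk-1), the C-type lectins (clec-64) and the cuticle collagens (col-63, rank 170), and 4 from the F-box genes, led by fbxa-47. The summit counted for col-63 lay in the 3' UTR of ceh-8, and that for clec-64 in a coding exon, 911 bp from the start of clec-64. piRNA genes near members numbered 216 at 47 peaks (5.38% against 6.06%), and tRNA genes 9 at 7 peaks. These shares over lists are a description and carry no test.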

How the data were processed

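The authors deposited, per the files' layout, relaxed peak lists of 30000 peaks for each replicate and for pooled reads, and a thresholded list. The ce11 lists were used and the ce10 lists were not. The deposited signal (column 7) is the authors' value with no scale stated, and the deposited score (column 9) falls below 0 in the pooled list, so its scale is unknown, and it was used to rank and to count peaks above 0. Aligner, peak caller and threshold: not given in the sources used here. The accompanying text names 1 further source file common to both replicate lists, whose content was not used here.

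Positions came from Ensembl release 115 genes and sequence from RefSeq, both of the ce11 build, 1-based. Where annotations overlapped, a summit took its feature from coding exons first, then UTRs, noncoding RNA exons, pseudogenes, introns and lastly the space between genes. Shares were compared by differences with Newcombe 95% score intervals, widened within families of 8 features, 8 RNA classes, 6 chromosomes and 10 motifs. GC content was compared by a difference of means with its interval. The intervals and overlap code were tested on simulated data. Alternatives were other ranks, column 9, clusters, windows and each replicate's own list. Python 3.11.15, numpy 2.4.6, pandas 2.3.3 and scipy 1.17.1 were used.

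The members and lists were chosen with earlier results of these data known. Genes are named by rule: the 20 members of highest signal, the 10 best by the worse replicate rank, the 5 largest and 5 smallest replicate ratios, genes with most member summits, up to 4 best-placed member peaks of each list and the members at ranks 126 and 1000. Genes with 2 summits were picked from 26 after their values were seen.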

Additional observations from a re-analysis of the deposited data

How the results depend on the processing

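Of 116 recomputed values over 13 results, 83 kept their direction and their side of the threshold. Taking ranks from 1 replicate's own list, that is leaving out the other, changed most. The start difference ranged from -1.58 to 3.25 points and lost its call both ways. Noncoding RNA exons ranged from 0.463 to 1.51 points, genes of the ncRNA class from 0.905 to 1.48, GAGAGA from 2.36 to 6.22, CACGTG from 0.529 to 2.01, the autosomal outer 25% from -4.39 to -2.55, closeness to thresholded summits from 0.0308 to 2.25 and piRNA genes from -0.168 to 0.246. Coding exons ranged from -4.72 to 0.928 points and space between genes from 0.643 to 5.10, and both became called in replicate 1's list. Ranking by column 9 ended the calls for noncoding RNA exons (0.751 points), the ncRNA class (0.721), GC content (0.374), CACGTG (1.69) and the outer 25% (-3.96). That ranking put lower peaks in place of most members and of all comparison peaks, so it covered only a minority of the members. Members after rank 500, a setting chosen after seeing the data, reversed starts (-0.0501) and ended the calls for noncoding RNA exons (0.852), the ncRNA class (1.102), GC content (0.300) and GAGAGA (1.03). Starts of coding genes gave 1.43 points, not called, and against the lower peaks the space between genes gave 5.27 points, called. Results not called in the main comparison changed sign in several settings. Coding exons gave 0.578 against ranks to 2000. PiRNA genes gave -0.123 against the lower peaks, -0.125 after rank 500, -0.0465 inside the gene and -0.263 within 500 bp. The share on X gave -0.737 against ranks to 2000, -0.596 by column 9 and -0.184 for members to rank 500. The cause was not tested. No paired analysis was possible because there is 1 group. Depth is unknown.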
